A study of Homo sapiens with 15 samples.

Results

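The lysosomal genes examined here were 37 listed by symbol and read from the deposited expression table, where all 37 were found among 25503 genes. They comprised 16 hydrolases (8 cathepsins, 6 glycosidases, and the lipid hydrolases ASAH1 and SMPD1), the lipid-handling proteins PSAP and NPC2, and the membrane proteins LAMP1, LAMP2, CD63 and MCOLN1. TFEB, a transcription factor, and 14 genes of the vacuolar proton pump (V-ATPase) completed the set. Membership rests on the symbol and no threshold on expression, although the list was drawn up with earlier results of these data known. Of these, 35 passed the filter on low values in AsPC-1 (the exceptions were the cathepsins CTSH and CTSS) and 37 in Capan-1.

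RNA sequencing of 2 human lines of pancreatic ductal adenocarcinoma gave 15 libraries, and the study's title concerns the effect of the glycosyltransferases B4GALT5 and B3GNT3 on MHC class I of tumour cells. AsPC-1 cells were transfected with a control siRNA (siNC), with an siRNA against B4GALT5 (siB4GALT5) or with an siRNA against B3GNT3 (siB3GNT3). Capan-1 cells were transfected with siNC or siB3GNT3, and each of the 5 groups had 3 libraries. All cells had received an siRNA, and the siRNA sequences, doses and times are not given in the sources used here. The labels do not state whether the libraries within a group were grown separately. The p-values below therefore reflect library-to-library spread, which may be technical.

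B4GALT5, a Golgi enzyme that makes lactosylceramide, was at 38.7, 35.8 and 35.5 FPKM (fragments scaled by transcript length and library size) in the AsPC-1 siNC libraries and at 8.70, 8.49 and 8.03 with siB4GALT5. B3GNT3, an enzyme that extends O-glycans, was at 22.5, 23.8 and 23.3 FPKM in AsPC-1 siNC and at 2.53, 2.5 and 24.2 in the libraries labelled AsPC-1 siB3GNT3 replicates 1, 2 and 3. Replicate 3 therefore went against its label and was set apart, which leaves 2 libraries in that group and makes the fall of B3GNT3 there no independent check. Over the 10775 genes tested in AsPC-1 the set-apart library differed from the siNC libraries by a root mean square of 0.141 to 0.149 on the log2 scale. From replicates 1 and 2 it differed by 0.475 to 0.489. In Capan-1 B3GNT3 was at 13.3, 13.2 and 13.7 FPKM with siNC and at 1.32, 1.67 and 1.84 with siB3GNT3. With siB4GALT5 in AsPC-1 B3GNT3 was at 32.4, 30.8 and 27.9 FPKM, above every control. B4GALT5 was at 34.9, 33.5 and 36.7 in AsPC-1 siB3GNT3 replicates 1, 2 and 3. In Capan-1 B4GALT5 was at 74.2, 76.4 and 76.0 with siNC and at 63.5, 68.9 and 72.3 with siB3GNT3, below every control. The part of these shifts in the differences below was not tested.

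Read depth is unknown because the table holds FPKM and no counts. Between 10339 and 11531 genes per library reached 1 FPKM. The summed FPKM of 6 epithelial markers was 2022 to 2078 in AsPC-1 siNC and 4765 to 5005 in Capan-1 siNC, but CDH1 and KRT7, which mark epithelium, averaged only 0.210 and 0.298 FPKM with siNC in AsPC-1, against 17.8 and 66.8 in Capan-1. PTPRC, the pan-leukocyte marker, did not exceed 0.160 FPKM in any library, and 2 of 6 myeloid and 1 of 4 endothelial markers reached 1 FPKM in any library. Of the fibroblast markers 3 of 6 did so. The share of FPKM in 13 mitochondrially encoded mRNAs was 23.8% to 24.8% in AsPC-1 siNC, 18.1% to 19.5% with siB4GALT5 and 19.7% to 20.1% with siB3GNT3 replicates 1 and 2. In Capan-1 it was 14.3% to 14.8% with siNC and 13.6% to 14.4% with siB3GNT3. Its part in the differences below was not tested.

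Lysosomes degrade proteins, glycans and lipids delivered by endocytosis and autophagy, and their hydrolases work at acid pH. The V-ATPase acidifies the lumen: its cytosolic V1 sector hydrolyses ATP and drives proton flow through the membrane V0 sector. TFEB and its relatives bind a palindromic element around CACGTG and activate many lysosomal genes, and lysosomal cathepsins also cut antigens in cells that present peptides.

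The promoters are shown because members with this element include several whose mRNA levels differed with knockdown. Those printed are the members with it whose mRNA was higher with siB4GALT5 by the test described below. CD63, lower by that test, and CTSA and CTSD, which did not pass it, also hold the element and are not printed. The printed promoters were thus chosen by the outcome, and the part of the element in these differences was not tested. RefSeq windows from 250 bases before to 50 after the annotated start (GRCh38.p14) matched 26 of the 37 members by symbol. CACGTG, which reads the same on both strands, was present in 9 of them (34.6%) against 8.77% of 27305 genes. The longer TCACGTG, which contains it and was searched on both strands, was in 8 members (30.8%, against 4.49% of genes), and TCACGTGA in 5 (19.2% against 1.18%). Of 36 other hydrolase, lysosomal membrane and V-ATPase genes with a window, 19.4% held CACGTG, 19.4% TCACGTG and 8.33% TCACGTGA. The complete palindrome, TCACGTGA with a G before it and a C after it, was in the windows of MCOLN1 and ATP6V1G1 (7.69% against 0.421%). LAMP1 had 6 copies of CACGTG. CTSA, MCOLN1 and ATP6V0B had 2 each, and CD63, CTSD, NEU1, ATP6V0D1 and ATP6V1G1 had 1. A match describes these letters only and is not a measured binding site. For 6 of these genes, stretches of 100 bases are printed 5′ to 3′ on the gene's strand, with CACGTG in capitals: ATP6V1G1 at chr9:114587649-114587748 (plus strand), LAMP1 at chr13:113297029-113297128 (plus, holding 4 of its copies), ATP6V0B at chr1:43974860-43974959 (plus), ATP6V0D1 at chr16:67481178-67481277 (minus), MCOLN1 at chr19:7522524-7522623 (plus) and NEU1 at chr6:31862902-31863001 (minus).
ATP6V1G1: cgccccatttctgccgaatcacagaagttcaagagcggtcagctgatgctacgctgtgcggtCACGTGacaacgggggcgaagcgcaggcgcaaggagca
LAMP1: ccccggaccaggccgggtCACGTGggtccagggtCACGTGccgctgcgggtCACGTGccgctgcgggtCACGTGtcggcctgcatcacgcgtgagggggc
ATP6V0B: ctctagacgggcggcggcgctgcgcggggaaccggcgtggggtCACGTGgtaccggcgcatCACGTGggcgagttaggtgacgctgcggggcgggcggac
ATP6V0D1: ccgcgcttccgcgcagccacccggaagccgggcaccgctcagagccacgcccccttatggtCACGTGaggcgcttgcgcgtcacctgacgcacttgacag
MCOLN1: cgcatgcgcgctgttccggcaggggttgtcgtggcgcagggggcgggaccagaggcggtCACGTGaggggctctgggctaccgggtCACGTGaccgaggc
NEU1: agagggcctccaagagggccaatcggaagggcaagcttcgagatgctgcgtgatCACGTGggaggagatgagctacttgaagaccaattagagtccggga

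**Figure D1:**
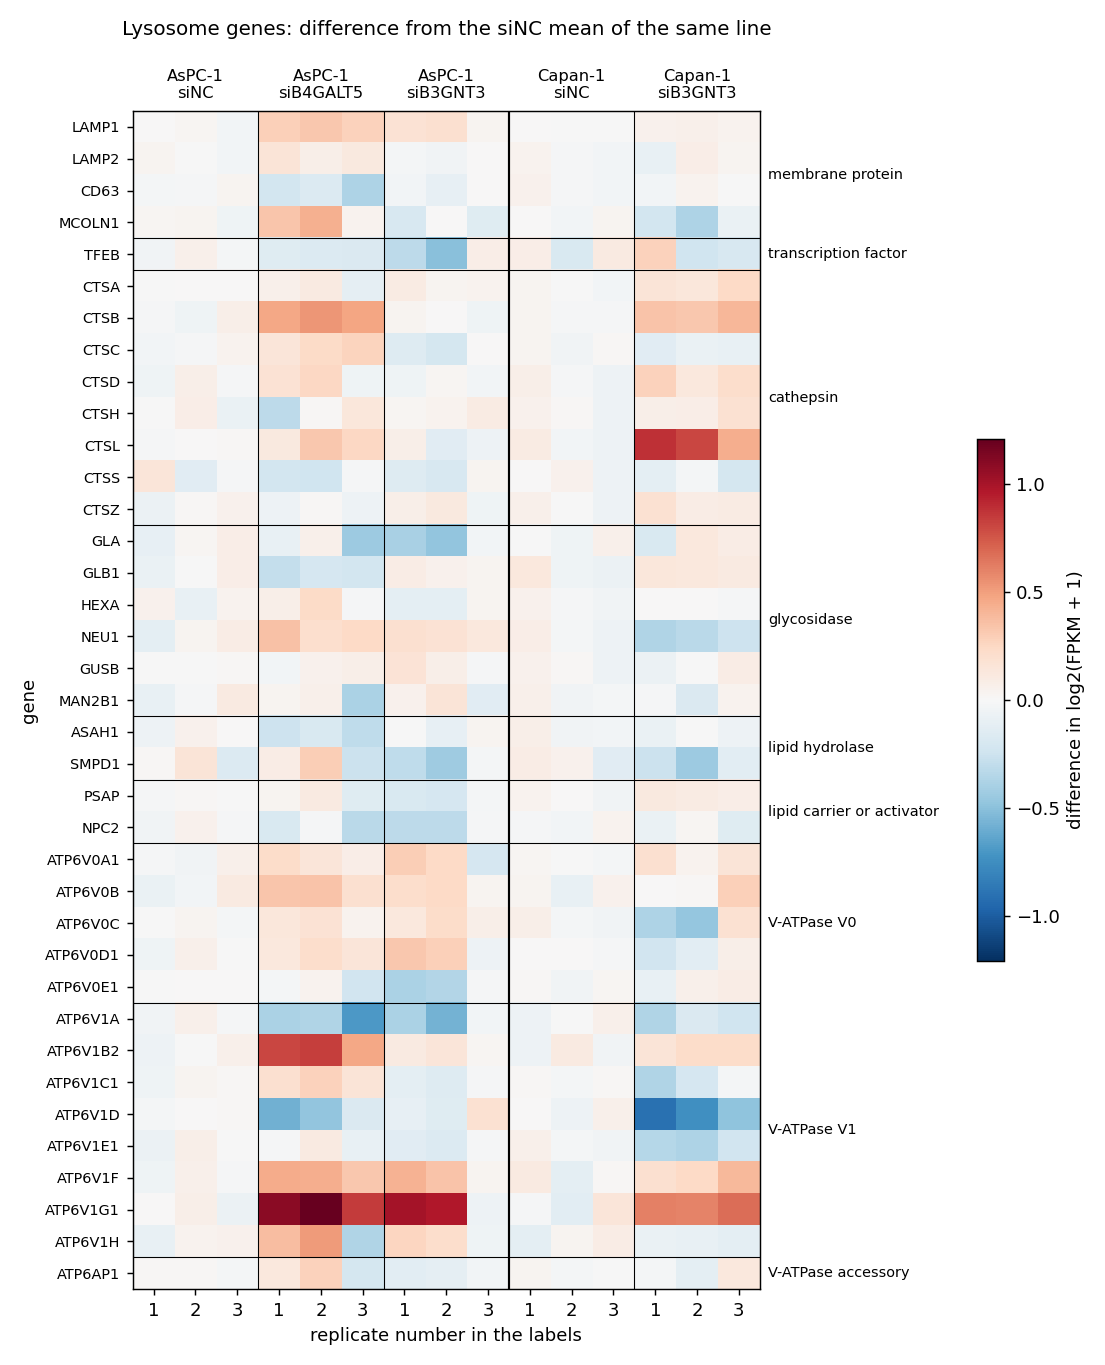
Heat map of the 37 lysosomal genes (vertical, by role) in 15 libraries (horizontal); colour is the difference in log2(FPKM + 1) from the mean of the siNC libraries of the same line. ATP6V1G1 was higher in every knockdown library except AsPC-1 siB3GNT3 replicate 3, where it was 31.2 FPKM against 31.1 to 34.2 in siNC.

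B4GALT5 knockdown in AsPC-1 was accompanied by higher mRNA of several V1 subunits, of cathepsins B, C and L and of LAMP1, and by lower mRNA of V1 subunits A and D, CD63, ASAH1 and GLB1. A gene was called where limma's adjusted p, over all genes tested, was under 0.05, and log2 differences are on the log2(FPKM + 1) scale, which understates change in low genes. Of 35 members tested 12 rose and 5 fell, or 48.6%. Of the 10775 genes tested 58.2% were called, 35.2% higher and 23% lower. Here and below, gaps between the members' share and that of all genes were not tested. The members' median log2 difference was 0.09 and that of all genes 0.06. With median-ratio scaling the split was 8 higher and 7 lower. The groups did not overlap for 21 of 35 members, against 64% of all genes.

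Among the membrane proteins, LAMP1, a major lysosomal membrane glycoprotein, was at 82.3, 83.5 and 80.3 FPKM in siNC and at 100.3, 103 and 99.9 with siB4GALT5. Every siB4GALT5 library exceeded every control, and the log2 difference was 0.30 (SE 0.04, limma adjusted p 0.000253). CD63, a tetraspanin of late endosomes, was at 212, 214 and 221 in siNC and at 185, 192 and 167 with siB4GALT5. It was lower in each knockdown library, by −0.25 log2 (limma adjusted p 0.00379). MCOLN1, the lysosomal calcium channel, was at 8.45, 8.52 and 7.99 in siNC and at 10.8, 11.5 and 8.59 with siB4GALT5. Its groups did not overlap, but replicate 3 of siB4GALT5 lay close to the controls, and the log2 difference of 0.27 had a limma adjusted p of 0.0437. LAMP2 was at 8.28, 8.0 and 7.85 in siNC and 9.08, 8.51 and 8.84 with siB4GALT5, with no call (limma adjusted p 0.0973). TFEB was at 1.84, 2.05 and 1.87 in siNC and 1.64, 1.61 and 1.59 with siB4GALT5. The TFEB groups did not overlap, but its log2 difference of −0.16 was not called (limma adjusted p 0.106).

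Of 14 hydrolases tested 4 rose and 2 fell, or 42.9% against 58.2% of all genes. CTSB, a cysteine cathepsin, was at 72.1, 70.2 and 76.4 FPKM in siNC and at 101, 106 and 102 with siB4GALT5. The groups were far apart, with a log2 difference of 0.49 (SE 0.05, limma adjusted p 2.95e-05). CTSL, another cysteine cathepsin, was at 73.6, 74.5 and 75.2 in siNC and at 80.8, 93.7 and 89.0 with siB4GALT5, all above the controls but spread wider (log2 0.23, limma adjusted p 0.0170). CTSC, which activates serine proteases, rose by 0.21 log2 (limma adjusted p 0.00438), with siNC at 84.4 to 88.7 and siB4GALT5 at 95.4 to 104 FPKM. The fourth was NEU1, a sialidase at a mean of only 1.51 FPKM in siNC and 2.01 with siB4GALT5. The members that fell were ASAH1, the acid ceramidase (mean 40.2 to 33.7 FPKM), and GLB1, the beta-galactosidase (30.7 to 25.9 FPKM), by −0.25 and −0.24 log2. CTSA, CTSD, CTSZ, GLA, HEXA, GUSB, MAN2B1 and SMPD1 were not called, nor were PSAP and NPC2.

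In the V-ATPase 8 of 14 genes were called, 6 higher and 2 lower, or 57.1% against 58.2% of all genes. The V1 sector moved in opposite directions. ATP6V1G1, a subunit of the V1 peripheral stalk, was at 32.7, 34.2 and 31.1 FPKM in siNC and at 70.8, 76.8 and 59.3 with siB4GALT5. Its lowest knockdown library was well above its highest control, and the log2 difference of 1.05 (SE 0.09, limma adjusted p 1.03e-05) was the largest among the 35 members. ATP6V1B2, part of the catalytic head, was at 27.8, 29 and 30.5 in siNC and 51.5, 52.8 and 40.7 with siB4GALT5, higher throughout (log2 0.70, limma adjusted p 0.000164). ATP6V1F, in the central rotor, was at 69.7, 75.7 and 71.9 and then at 99.1, 98.8 and 91.0, also without overlap (log2 0.41, limma adjusted p 0.000191). ATP6V1C1 rose by 0.21 log2.

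ATP6V1A, the catalytic subunit itself, went the other way, at 16.0, 17.3 and 16.4 FPKM in siNC and 12.4, 12.6 and 9.82 with siB4GALT5. All knockdown libraries lay below the controls (log2 −0.48, SE 0.10, limma adjusted p 0.00195). ATP6V1D, a rotor subunit, was at 30.4, 31.0 and 31.1 and then at 20.3, 21.8 and 27.3, lower in each library but spread wider (log2 −0.41, limma adjusted p 0.00406). In V0, ATP6V0B (log2 0.29) and ATP6V0D1 (log2 0.16) rose and none of 5 fell. ATP6AP1, an accessory subunit, was at 26.5, 26.5 and 25.8 in siNC and 28.8, 32.1 and 22.5 with siB4GALT5, overlapping and not called (limma adjusted p 0.615). The calls of CTSL, NEU1, MCOLN1 and ATP6V0D1 each depended on single libraries: without siNC replicate 1 none of the 4 was called, and limma adjusted p reached 0.0589, 0.0854, 0.144 and 0.0736 over the leave-one-out fits. Without siNC replicate 2 MCOLN1 alone lost its call, without siNC replicate 3 MCOLN1 and ATP6V0D1, without siB4GALT5 replicate 1 NEU1 and MCOLN1, and without siB4GALT5 replicate 2 CTSL, MCOLN1 and ATP6V0D1. Without siB4GALT5 replicate 3, the library nearest the controls for several pump genes, 22 members were called, among them ATP6V1H (log2 0.45, limma adjusted p 0.000173). Median-ratio scaling also ended the calls of CTSL, MCOLN1, ATP6V0D1 (log2 0.09) and ATP6V1C1 (log2 0.14, limma adjusted p 0.055), and testing all genes without the filter those of CTSL, NEU1 and MCOLN1.

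**Figure D2:**
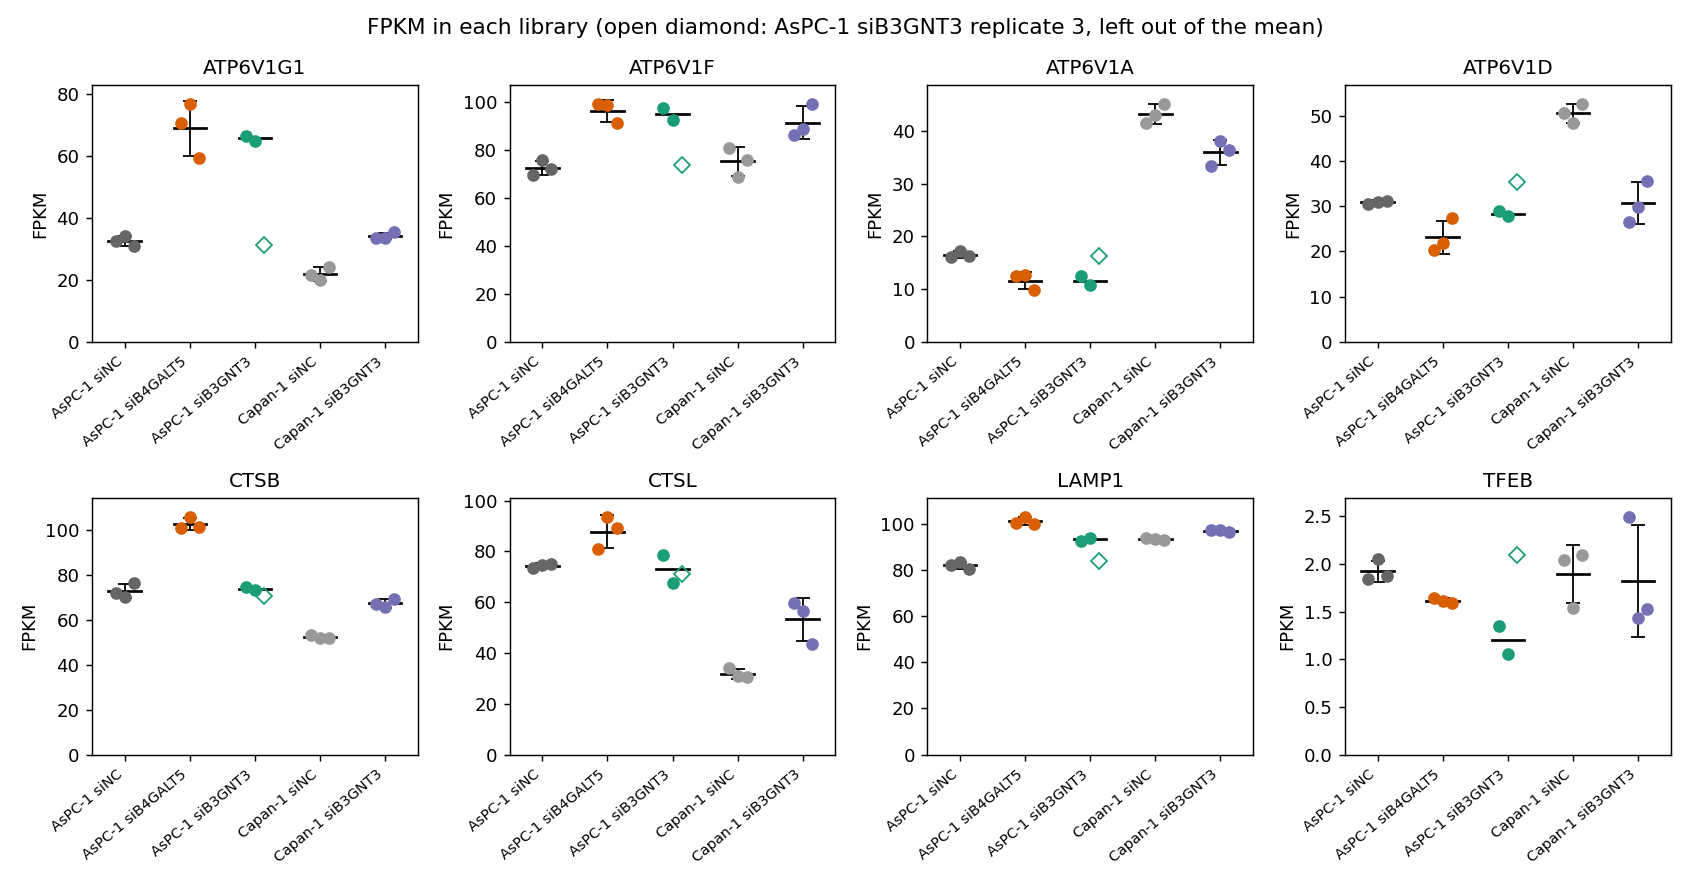
FPKM per library (points) of ATP6V1G1, ATP6V1F, ATP6V1A, ATP6V1D, CTSB, CTSL, LAMP1 and TFEB in the 5 groups, with group means and SD (n = 3; the AsPC-1 siB3GNT3 mean is of 2 libraries, without an error bar, and the open diamond is the set-apart replicate 3). CTSB stood above control with siB4GALT5 in AsPC-1 (101 to 106 FPKM) and siB3GNT3 in Capan-1 (65.7 to 69.4 FPKM).

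B3GNT3 knockdown in AsPC-1, from replicates 1 and 2, was accompanied by higher ATP6V1G1, ATP6V1F, LAMP1 and 4 of 5 V0 subunits, and by lower TFEB, ATP6V1A, ATP6V0E1, PSAP, NPC2, GLA and CTSC. Of 35 members 7 rose and 7 fell, or 40%, against 52.9% of 10775 genes (32.5% higher, 20.4% lower). The members' median was −0.03 and that of all genes 0.07. Median-ratio scaling gave 4 higher and 10 lower, and rescaling to a common sum 9 and 5. The 2 libraries did not overlap with siNC for 27 of 35 members, against 75.8% of all genes. With replicate 3 restored 0 members and 0 of 10804 genes (0%) were called by limma, while 4 members and 3011 genes had an unadjusted p under 0.05. The 14 called members were all nearer the siNC mean in replicate 3 than the mean of replicates 1 and 2.

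LAMP1 was at 92.5 and 94.0 FPKM in replicates 1 and 2 against 80.3 to 83.5 in siNC, above every control (log2 0.18, SE 0.05, limma adjusted p 0.00867). In replicate 3 it was at 84.0. LAMP2, at 7.87 and 7.80 in replicates 1 and 2, and MCOLN1, at 7.15 and 8.35, were not called (limma adjusted p 0.679 and 0.51). TFEB was at 1.35 and 1.06 FPKM against 1.84 to 2.05 in siNC, below every control, and fell by 0.41 on the log2 scale (SE 0.09, limma adjusted p 0.00365). In replicate 3 TFEB was at 2.09, above all 3 controls. CD63 was not called.

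No hydrolase rose and 2 of 14 fell, or 14.3% against 52.9% of all genes. GLA, the alpha-galactosidase, was at 31.0 and 29.2 FPKM against 38.1 to 43.4 in siNC, and CTSC at 77.1 and 74.3 against 84.4 to 88.7. Both stood below their controls (log2 −0.43 and −0.18, limma adjusted p 0.0168 and 0.0174). CTSB was at 74.5 and 73.1 FPKM and CTSL at 78.5 and 67.6, straddling or within the control range (limma adjusted p 0.792 and 0.758). Both lipid-handling genes fell: NPC2, which binds cholesterol in the lumen, was at 36.8 and 36.9 FPKM against 44.9 to 47.8, and PSAP, the saposin precursor, at 189 and 187 against 212 to 218. Neither pair overlapped with the controls (log2 −0.32 and −0.19, limma adjusted p 0.0102 and 0.0402).

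Of 14 V-ATPase genes 8 were called, 6 higher and 2 lower, or 57.1% against 52.9% of all genes. ATP6V1G1 was at 66.5 and 65.0 FPKM against 31.1 to 34.2 in siNC, far above the controls (log2 0.99, SE 0.10, limma adjusted p 3.88e-05). ATP6V1F was at 97.5 and 92.4 against 69.7 to 75.7 (log2 0.39, limma adjusted p 0.000618). ATP6V1A was at 12.5 and 10.8 against 16.0 to 17.3, below every control (log2 −0.48, limma adjusted p 0.00431). In replicate 3 these genes were at 31.2, 73.9 and 16.2 FPKM, each within the siNC range.

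In V0, ATP6V0D1, which links the rotor to the membrane ring, was at 60.0 and 58.5 FPKM against 46.0 to 49.8 (log2 0.31, limma adjusted p 0.00141). ATP6V0A1 (log2 0.27), ATP6V0C (log2 0.17) and ATP6V0B (log2 0.23) also rose. ATP6V0E1, a small V0 subunit, was at 83.3 and 85.0 against 109 in each siNC library and fell by 0.37 on the log2 scale (limma adjusted p 0.00265). ATP6AP1, at 23.9 and 24.3, and ATP6V1D, at 28.8 and 27.9, were not called (limma adjusted p 0.425 and 0.357). Only ATP6V1G1, ATP6V1F, ATP6V0D1, ATP6V0E1 and TFEB were called in every fit that left out 1 of the 8 libraries. Fits without siB3GNT3 replicate 1 or 2, which leave 1 library assumed to vary like the other groups, called 9 and 6 members. Values in brackets are the highest limma adjusted p over the leave-one-out fits. Without replicate 2 ATP6V1A (0.0525), LAMP1 (0.0634), CTSC (0.119), GLA, NPC2, PSAP, ATP6V0B and ATP6V0C were lost, and without replicate 1 GLA (0.105), NPC2 (0.0561), PSAP (0.151), ATP6V0A1 (0.0805) and ATP6V0B (0.119). Leaving out single siNC libraries ended the calls of PSAP (each of 3), ATP6V0B (replicates 1 and 2), ATP6V0C (1 and 3; adjusted p up to 0.175), CTSC and GLA (replicate 3), and PSAP was also lost without siB4GALT5 replicate 1. Median-ratio scaling ended the calls of LAMP1 (log2 0.11, limma adjusted p 0.087), ATP6V0B (0.15) and ATP6V0C (0.10). Rescaling to a common sum ended those of CTSC and PSAP (limma adjusted p 0.165 and 0.176), and testing without the filter those of GLA, PSAP and ATP6V0B.

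The knockdowns in AsPC-1 were then compared with each other, since both comparisons above share the siNC libraries and their likeness cannot be read from those lists. CTSB, CTSC, ATP6V1B2, ATP6V1C1, CTSL, MCOLN1 and ATP6V0E1 were higher with siB4GALT5 than with siB3GNT3, and GLB1, ASAH1 and CD63 were lower. These 10 of 35 members were 28.6%, against 35.2% of all genes (17.8% higher, 17.4% lower), and the members' median was 0.12 against −0.00. After rescaling to a common sum without the mitochondrial mRNAs the split was 7 higher and 6 lower. Groups did not overlap for 23 members, against 56.5% of genes. CTSB differed by 0.47 log2 (SE 0.05, limma adjusted p 0.000206), CTSC by 0.40 (0.000557) and ATP6V1B2 by 0.58 (0.00237). ATP6V1G1 differed by 0.06 (SE 0.10, limma adjusted p 0.665), ATP6V1F by 0.02 (0.825) and ATP6V1A by −0.00 (0.986), so no difference between the knockdowns was detected for these 3 genes, which does not show that they were equal.

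With replicate 3 restored 7 members were called in this comparison (15.9% of all genes), and CD63, ASAH1 and ATP6V0E1 lost their calls. The count was 6 without siB3GNT3 replicate 1, 5 without siB3GNT3 replicate 2 and 22 without siB4GALT5 replicate 3. MCOLN1 was lost in 7 of the 8 leave-one-out fits (all but siB4GALT5 replicate 3, limma adjusted p up to 0.229), CD63 in 6 (each siNC and siB3GNT3 library and siB4GALT5 replicate 1, up to 0.24), and ASAH1 in 5 (siNC replicates 2 and 3, each siB3GNT3 library and siB4GALT5 replicate 1, up to 0.23). CTSL was lost without siB3GNT3 replicate 2 or siB4GALT5 replicate 2 (up to 0.234), and ATP6V0E1 without either siB3GNT3 library (up to 0.0838). Testing without the filter ended the calls of CD63, CTSL, ASAH1 and MCOLN1, and median-ratio scaling that of CD63.

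B3GNT3 knockdown in Capan-1 was accompanied by higher cathepsins A, B, D and L, ATP6V1G1 and ATP6V1F, and by lower ATP6V1D, ATP6V1E1, ATP6V1A and NEU1. Of 37 members 6 rose and 4 fell, or 27%, against 32.9% of 11493 genes (18.7% higher, 14.2% lower). The members' median was 0.00 and that of all genes 0.02, and median-ratio scaling gave 4 higher and 5 lower. Groups did not overlap for 18 of 37 members, against 50.1% of genes. No membrane protein of 4, no lipid-handling gene and no V0 subunit of 5 was called, nor was TFEB.

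Of 16 hydrolases 4 rose and 1 fell, or 31.25% against 32.9% of all genes. The 4 hydrolases that rose were all cathepsins. CTSL was at 34.1, 31.0 and 30.5 FPKM in siNC and at 59.5, 56.7 and 43.4 with siB3GNT3, above every control though replicate 3 was lower than its group (log2 0.71, SE 0.12, limma adjusted p 0.00345). CTSB was at 53.4, 51.8 and 51.8 and then at 66.9, 65.7 and 69.4, tight in both groups (log2 0.36, SE 0.06, limma adjusted p 0.00318). CTSD, the major aspartic protease of lysosomes, had siNC values of 294, 276 and 268 and knockdown values of 340.1, 305 and 324 (log2 0.21, limma adjusted p 0.0403). CTSA, a carboxypeptidase that protects the sialidase NEU1 in a complex, had siNC values of 92.3, 90.0 and 87.9 and knockdown values of 100.2, 99.4 and 107 (log2 0.18, limma adjusted p 0.0479). NEU1 itself fell, from 32.6, 30.2 and 29.4 to 23.6, 24.2 and 25.6 FPKM without overlap (log2 −0.32, SE 0.07, limma adjusted p 0.0104).

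Of 14 V-ATPase genes 5 were called, or 35.7% against 32.9% of all genes, and all 5 were in V1. ATP6V1G1 was at 21.5, 19.8 and 24.2 FPKM in siNC and at 33.7, 33.4 and 35.4 with siB3GNT3, higher throughout (log2 0.63, SE 0.08, limma adjusted p 0.00130). ATP6V1D was at 50.6, 48.3 and 52.6 and then at 26.5, 29.7 and 35.6, with a wide gap between the groups (log2 −0.71, SE 0.10, limma adjusted p 0.00203). ATP6V1E1, a stalk subunit, was at 69.2, 65.3 and 64.5 and then at 52.0, 51.1 and 56.3 (log2 −0.32, limma adjusted p 0.00888). ATP6V1A fell from 41.5, 43.1 and 45.1 to 33.4, 38.1 and 36.5 (log2 −0.26, limma adjusted p 0.0255), again without overlap. ATP6V1F was at 80.8, 68.9 and 76.0 and then at 86.2, 88.8 and 99.2, with a narrower gap (log2 0.28, limma adjusted p 0.0329).

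LAMP1 was at 94.0, 93.3 and 93.1 FPKM in Capan-1 siNC and at 97.1, 97.3 and 96.3 with siB3GNT3, without overlap but with a log2 difference of only 0.05 (limma adjusted p 0.478). LAMP2 was at 11.3, 10.9 and 10.7 and then at 10.3, 11.7 and 11.3. MCOLN1 was at 6.95, 6.76 and 7.11 and then at 5.82, 5.14 and 6.52, lower in each library but not called (limma adjusted p 0.0863). TFEB, at 2.04, 1.54 and 2.10 and then at 2.49, 1.43 and 1.52, overlapped widely, and so did ATP6AP1, at 65.2, 62.8 and 63.9 and then at 62.9, 58.9 and 70.1. ATP6V1G1, ATP6V1D, CTSB, CTSL and ATP6V1E1 kept their calls in each of the 6 leave-one-out fits.

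The other Capan-1 calls depended on single libraries, and the count was 6 without any 1 of the siNC libraries and 16 without siB3GNT3 replicate 3. CTSD and ATP6V1A were lost without siB3GNT3 replicate 1 or any siNC library (limma adjusted p up to 0.163 and 0.111), and CTSA without any library except siB3GNT3 replicate 3 (up to 0.178). ATP6V1F was lost without siNC replicate 2 or 3 or siB3GNT3 replicate 2 (up to 0.131), and NEU1 without siNC replicate 1 (0.0547). CTSA and CTSD also lost their calls under median-ratio scaling, without the intensity trend and without the filter, and ATP6V1F without the filter. Fibroblast markers differed between the same groups: their summed FPKM was 57.4 to 63.3 in siNC and 80.1 to 85.7 with siB3GNT3, where mean COL1A1 was 75.7 against 50.0 FPKM and mean LUM 5.88 against 9.64. The epithelial sum was 4765 to 5005 and 3043 to 3892, the myeloid sum 4.79 to 6.02 and 5.67 to 7.11. Single markers did not move together. Of 6 epithelial markers 4 fell and CDH1 rose, from a mean of 17.8 to 23.8 FPKM. CD14 rose from 2.85 to 4.84 and LYZ fell from 2.39 to 1.42. In AsPC-1 the epithelial sum was 2022 to 2078 with siNC, 1641 to 1651 in siB3GNT3 replicates 1 and 2 and 1933 to 1949 with siB4GALT5. The part of these markers in the lysosomal differences was not tested.

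**Figure D3:**
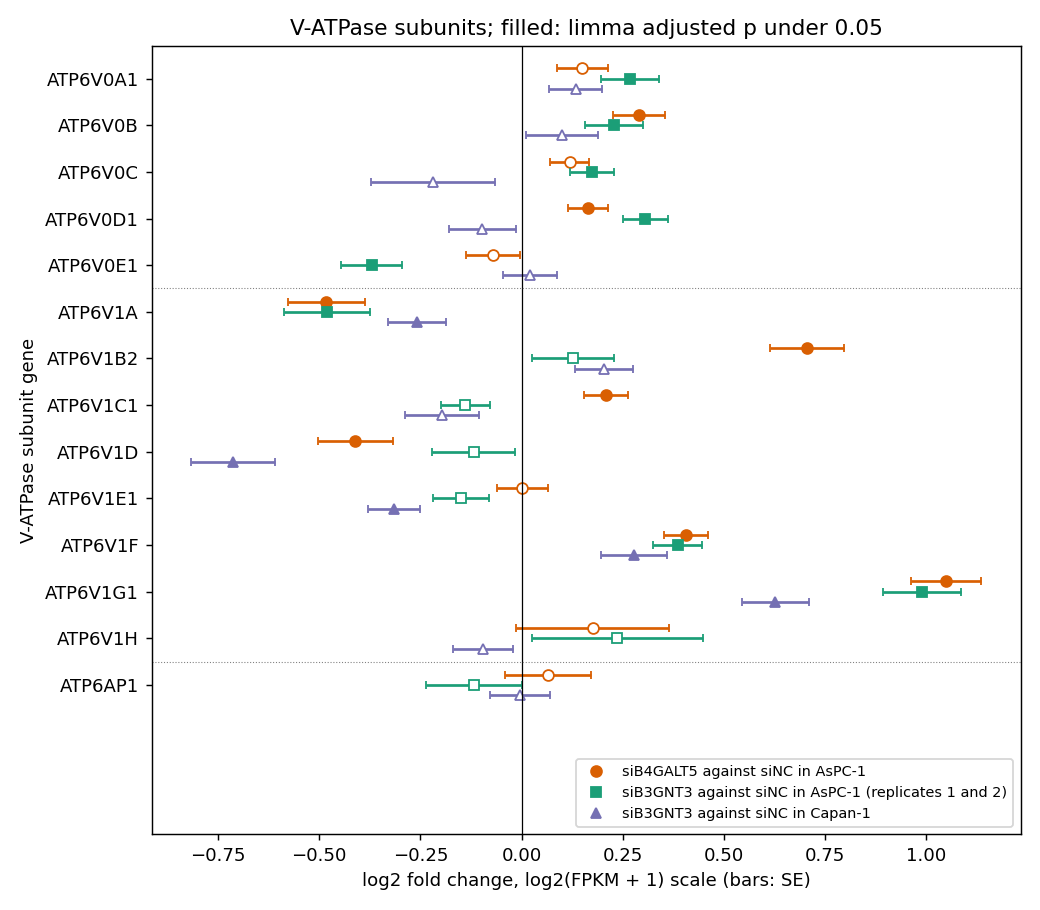
Log2 difference from siNC with its standard error for each of 14 V-ATPase genes in 3 comparisons (siB4GALT5 in AsPC-1, siB3GNT3 in AsPC-1 from replicates 1 and 2, siB3GNT3 in Capan-1); filled points are called by limma at an adjusted p under 0.05. ATP6V1G1 lay at 1.05, 0.99 and 0.63 and ATP6V1A at −0.48, −0.48 and −0.26.

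The siB3GNT3 calls of the 2 lines, which share no control library, had 3 members in common, ATP6V1G1 and ATP6V1F higher and ATP6V1A lower. These were 21.4% of the 14 AsPC-1 calls and 30% of the 10 Capan-1 calls, and no member was called in opposite directions. Over the 10068 genes tested in both lines the genes called in the same direction were 30.5% of the AsPC-1 calls and 49.9% of the Capan-1 calls. With only 3 members in common, the gap between the members' shares and these was not tested. The calls of ATP6V1G1 and ATP6V1A can be restated as a ratio of the former to the latter, both per length, which adds no separate evidence. It ran from 1.90 to 2.04 in AsPC-1 siNC and from 5.34 to 6.03 in siB3GNT3 replicates 1 and 2. With siB4GALT5 it ran from 5.69 to 6.08. In Capan-1 it ran from 0.460 to 0.536 with siNC and from 0.878 to 1.01 with siB3GNT3. The summed FPKM of the 8 V1 members overlapped in Capan-1, at 286 to 303 with siNC and 269.6 to 304 with siB3GNT3. In AsPC-1 it did not overlap with control, at 267 to 286 with siNC, 317 to 328 in siB3GNT3 replicates 1 and 2 and 318.5 to 374 with siB4GALT5. The sum does not stand for each member. With siB3GNT3 in AsPC-1 2 of the 8, ATP6V1G1 and ATP6V1F, were called higher and 1 lower. With siB4GALT5 4 were called higher and 2 lower.

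The response to siB3GNT3 differed between lines, by the interaction in a fit of both lines, for 7 of 37 members, 4 higher in Capan-1 and 3 lower. That was 18.9%, against 32.8% of 12236 genes (13.8% higher, 19% lower), and the members' median was 0.06 against −0.04. CTSL and CTSB had the more positive response in Capan-1, by 0.74 (SE 0.15, limma adjusted p 0.00241) and 0.34 log2 (SE 0.07, adjusted p 0.00327). ATP6V0E1 and PSAP fell in AsPC-1 and were not called in Capan-1, a difference of 0.39 and 0.29. NEU1 (−0.50), ATP6V1D (−0.59) and ATP6V0D1 (−0.40) had the more negative response in Capan-1. ATP6V1G1 responded by 0.36 log2 less in Capan-1, short of the threshold (limma adjusted p 0.0514), and TFEB, ATP6V1A and ATP6V1F did not differ detectably (limma adjusted p 0.151, 0.222 and 0.461).

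Median-ratio scaling gave 7 higher and 3 lower for this interaction, and rescaling to a common sum 4 and 5. With replicate 3 restored, when 9.83% of all genes were called, CTSL (0.75), CTSB (0.36), NEU1 (−0.48) and ATP6V1D (−0.70) were called, while ATP6V0D1, ATP6V0E1 and PSAP were not (limma adjusted p 0.216, 0.223 and 0.138). PSAP was also lost without siB3GNT3 replicate 1 or 2 (up to 0.0645), and without siB4GALT5 replicate 3 the count was 12.

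The control cells of the lines differed in most members, in both directions. Of 37 members 19 were higher and 13 lower in Capan-1 siNC than in AsPC-1 siNC, or 86.5%, against 78.1% of 12236 genes (43.6% higher, 34.5% lower). The members' median was 0.19 and that of all genes 0.09. Groups did not overlap for 32 members, against 84.7% of genes. CTSH and CTSS, which passed the filter through the Capan-1 libraries alone, are among the 19. The mitochondrial share given above also differed between these groups, at 23.8% to 24.8% and 14.3% to 14.8%. With 1 line on each side, the line and its culture cannot be told apart.

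Among cathepsins CTSH and CTSS were nearly silent in AsPC-1. CTSH, an aminopeptidase, was at 0.331, 0.415 and 0.267 FPKM in AsPC-1 siNC and at 15.6, 15.1 and 14.3 in Capan-1 siNC, while CTSS, known for its role in antigen presentation by immune cells, was at 0.496, 0.228 and 0.333 and at 5.83, 6.04 and 5.53. The lines were far apart in both, a description only, since the filter admitted these genes through Capan-1. Beside CTSS, 6 myeloid markers summed to 0.109 to 0.420 FPKM over the AsPC-1 libraries and 4.79 to 6.02 in Capan-1 siNC. CD14 and LYZ averaged 2.85 and 2.39 in Capan-1 siNC, while PTPRC, CSF1R, CD163 and ITGAM did not exceed 0.160 in any library. The part of other cells was not tested. In bulk RNA fewer expressing cells and less mRNA per cell cannot be told apart. CTSC, at 84.4 to 88.7 against 20.2 to 21.4 FPKM, was lower in Capan-1 (log2 −2.0), and so were CTSL (log2 −1.20) and CTSB (log2 −0.47). CTSD was higher, at 268 to 294 against 102 to 111 FPKM (log2 1.39), as were CTSA and CTSZ.

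On this scale NEU1 showed the widest gap of all members (with a pseudocount of 0.1 that of CTSH was wider, 5.12 against 4.26), at 1.31, 1.57 and 1.66 FPKM in the AsPC-1 controls and at 32.6, 30.2 and 29.4 in those of Capan-1 (log2 3.66, SE 0.07, limma adjusted p 7.88e-15). HEXA (log2 1.26), MAN2B1 (0.77) and GUSB (0.43), which cleave glycans, were also higher in Capan-1, while GLB1 (−0.57) was lower and GLA not called. SMPD1, the acid sphingomyelinase, was higher (0.77), and ASAH1, the next enzyme in sphingomyelin breakdown, was lower, at 14.2 to 15.5 against 38.5 to 41.7 FPKM (log2 −1.39). NPC2, at 122 to 128 against 44.9 to 47.8 FPKM, and PSAP, at 410.1 to 434 against 212 to 218, were higher (log2 1.41 and 0.97).

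The V-ATPase was split: 5 of 14 genes were higher and 6 lower in Capan-1, or 78.6% against 78.1% of all genes. ATP6V0A1, which anchors the stator in V0, was at 5.85, 5.71 and 6.20 FPKM in AsPC-1 siNC and at 33.2, 32.5 and 32.1 in Capan-1 siNC (log2 2.28, limma adjusted p 2.34e-13). ATP6V1A (log2 1.33) and ATP6AP1 (1.25) were also higher, and ATP6V1B2 (−1.08), which pairs with ATP6V1A in the head, was lower, as were ATP6V1C1 (−0.76) and ATP6V1G1 (−0.56). LAMP2 and LAMP1 were higher (log2 0.41 and 0.19) and CD63 lower (−0.27). Rescaling to a common sum ended the calls of CD63 (log2 −0.11, limma adjusted p 0.0572), ATP6V0C (0.0562) and MCOLN1. MCOLN1 was lower by −0.23 (limma adjusted p 0.0471), a call lost in 8 of 14 leave-one-out fits (each siNC library of both lines, siB4GALT5 replicate 1 and Capan-1 siB3GNT3 replicate 1) and with replicate 3 restored. TFEB did not differ detectably (log2 −0.02, limma adjusted p 0.888).

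**Figure D4:**
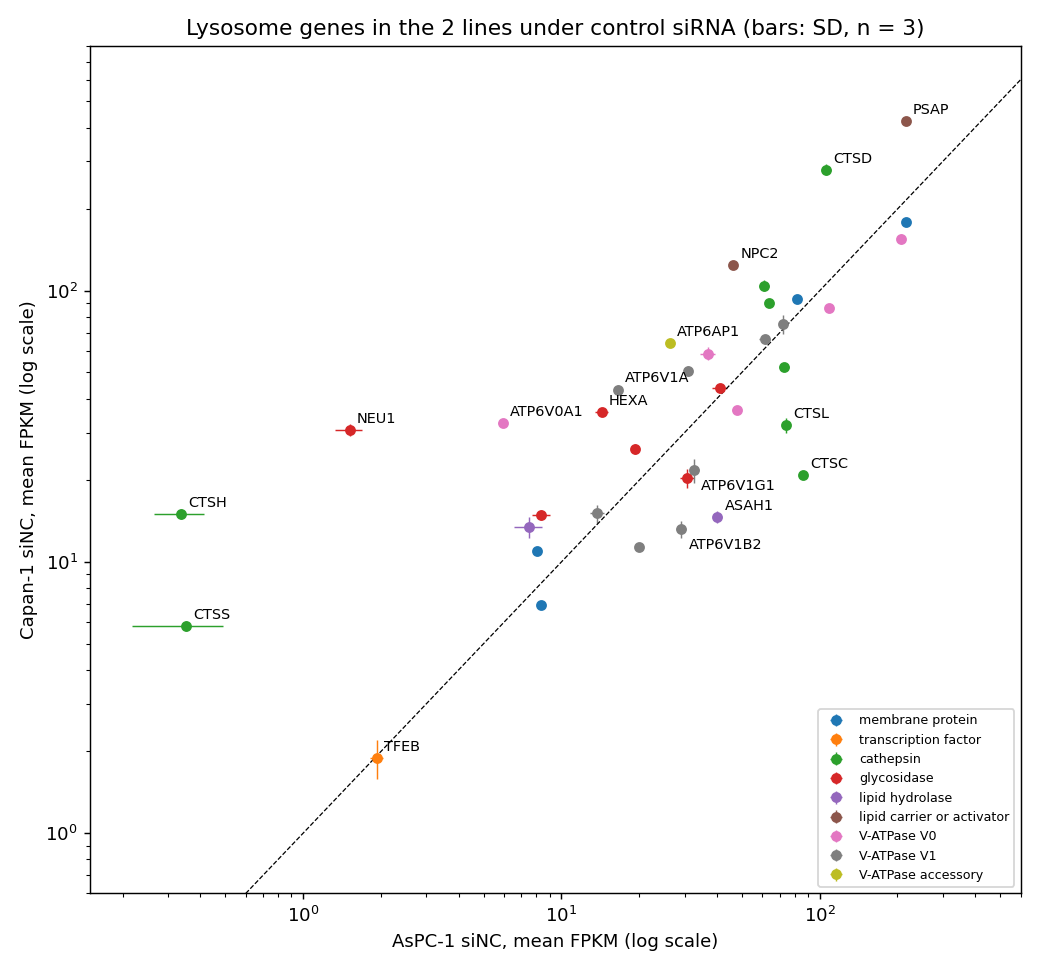
Mean FPKM of each of the 37 members in AsPC-1 siNC (horizontal) against Capan-1 siNC (vertical), both on log axes, with SD bars (n = 3). NEU1, CTSH and CTSS lie far on the Capan-1 side (NEU1 at 1.51 and 30.7 FPKM) and CTSC far on the AsPC-1 side.

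Of the 26 members with a promoter window, those with CACGTG were counted beside those without it, as a description. Members without a window are in neither count. Among them are ATP6V1B2 (log2 0.70), CTSB (0.49) and ATP6V1A (−0.48) with siB4GALT5. With siB4GALT5, 6 of 9 rose and 1 fell with the element (median log2 0.26), and 3 of 16 rose and 2 fell without it (0.02), where 35.2% of all genes were higher and 23% lower. Among the 6, NEU1, MCOLN1 and ATP6V0D1 lost their calls in some leave-one-out fits, as given above. With siB3GNT3 in AsPC-1, 4 of 9 rose and 0 fell (0.18), against 3 and 4 of 16 (−0.07), beside 32.5% and 20.4% of all genes. In Capan-1 the counts were 3 and 1 of 9 (0.05) against 2 and 2 of 17 (−0.00), beside 18.7% and 14.2%. Between the knockdowns in AsPC-1 they were 1 and 1 of 9 (0.06) against 2 and 1 of 16 (0.08), beside 17.8% and 17.4%. The interaction gave 0 and 2 of 9 against 1 and 1 of 17, beside 13.8% and 19%, and the control cells 5 and 4 of 9 (0.19) against 9 and 4 of 17 (0.43), beside 43.6% and 34.5%. ATP6V1G1, with the complete palindrome shown above, rose in each of the 3 comparisons, whereas MCOLN1, which also holds it, was called only with siB4GALT5, and NEU1 rose in one and fell in another.

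Lysosomal genes outside the 37 were read from 4 lists. With siB4GALT5, 7 of 25 other hydrolases and cofactors rose and 5 fell, 9 of 15 other membrane proteins rose and 3 fell, 1 of 5 other V-ATPase genes rose and 4 fell, and 12 of 19 sorting and regulatory genes rose and 4 fell. Of all genes 35.2% rose and 23% fell. CLCN7, the lysosomal chloride-proton exchanger, rose from a mean of 14.7 to 31.2 FPKM (log2 1.04), and IGF2R, which sorts hydrolases, from 8.39 to 17.1 (0.95). RRAGC, a GTPase that ties the lysosome to mTORC1, rose by 1.31. The pump genes ATP6V0E2 (−0.72), TCIRG1 (−0.52), ATP6AP2 (−0.45) and ATP6V0A2 (−0.28) fell.

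With siB3GNT3 in AsPC-1 the same lists gave 9 higher and 4 lower of 25, 5 and 3 of 15, 1 and 4 of 5, and 8 and 1 of 19, beside 32.5% higher and 20.4% lower of all genes. CLCN7 (1.05) and IGF2R (0.83) rose and ATP6AP2 (−0.71) fell. LAPTM4A, a lysosomal membrane protein, fell from a mean of 145 to 67.8 FPKM (log2 −1.09), while with siB4GALT5 its mean was 166 and the direct difference between the knockdowns was 1.28 (limma adjusted p 5.12e-06). In Capan-1 the counts were 5 and 2 of 26, 2 and 1 of 15, 0 of 5, and 5 and 1 of 21, beside 18.7% and 14.2% of all genes. LAPTM4A fell there from 132 to 52.7 FPKM (log2 −1.34, limma adjusted p 0.001), and CTSO, a cathepsin, rose by 0.86. CLCN7 and IGF2R responded less in Capan-1 by the interaction (−0.80 and −0.88).

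Between the control cells of the lines, 15 of 26 other hydrolases were higher in Capan-1 and 9 lower, and 10 of 15 other membrane proteins were higher and 1 lower. Of all genes 43.6% were higher and 34.5% lower. SORT1, a sorting receptor, had a mean of 0.179 FPKM in AsPC-1 siNC and 24.6 in Capan-1 siNC (log2 4.44), and MITF, a relative of TFEB, 0.0310 and 5.82 (log2 2.73). CTSF, one of the hydrolases counted as higher, had means of 0.0685 and 3.31 FPKM. No AsPC-1 siNC library helped these genes pass the filter, so their gaps are a description only. TCIRG1, an alternative V0 subunit a, was lower in Capan-1 (log2 −1.36), opposite to ATP6V0A1.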

How the data were processed

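The authors deposited 1 table of FPKM values for 15 libraries, and it was used unscaled. Per the submitters' processing notes the tools were Bowtie2, RSEM 1.3.1 and DESeq2 1.4.5 with build GRCh38; their roles, and the gene annotation, are not given in the sources used here. Values were analysed as log2(FPKM + 1) with limma 3.58.1 (R 4.3.3, intensity trend), on genes at 1 FPKM or more in at least 3 libraries of the fit, with Benjamini-Hochberg adjustment over all of them and an adjusted p threshold of 0.05. The AsPC-1 fit held 8 libraries, without the one labelled siB3GNT3 replicate 3; Capan-1 held 6, and the fit of both lines 14. Where a fit drops a library, siNC or siB4GALT5 libraries still inform the spread.

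The members, gene lists and tests were chosen with earlier results of these data known. Values per library were given for up to 8 members per comparison with the smallest p, for TFEB, MCOLN1, LAMP1, LAMP2 and ATP6AP1, and for both siRNA targets, with other members by range or count; other lists were named by up to 4 called genes of smallest p, not all of which are described. Of 149 list names 148 were found, 14 under another symbol. CTSL, GUSB, ATP6V0C, ATP6V0E1, ATP6V1E1 and ATP6V1G1 have named pseudogenes in GENCODE 29 (5 for ATP6V1G1). Exons of CTSA, GLB1, HEXA, NPC2, MCOLN1, ATP6V1D and ATP6V1F overlap another gene. The reads of all these members may be split or shared. Promoter windows came from RefSeq (GRCh38.p14). Replicate numbers of the sample titles were checked for pairing and did not pair libraries. Several library names carry other numbers, and pairing by those was not checked. The code was tested on simulated data; alternatives covered the pseudocount, filter, scaling, trend, block, groups fitted and each library left out. Python 3.11.15, numpy 2.4.6, pandas 2.3.3 and matplotlib 3.10.9 drew the figures.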

Additional observations from a re-analysis of the deposited data

Results flagged for a closer look

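For 7 members the response to siB3GNT3 differed between the lines by the interaction term in limma, each given as Capan-1 minus AsPC-1 on the log2 scale. CTSL (0.74) and CTSB (0.34) are cysteine cathepsins that rose in Capan-1 and were not called in AsPC-1. ATP6V0E1 (0.39) and PSAP (0.29) fell in AsPC-1 and were not called in Capan-1. NEU1 (−0.50) fell in Capan-1 and was not called in AsPC-1, where its level was low. ATP6V1D (−0.59) fell in Capan-1 and was not called in AsPC-1, and ATP6V0D1 (−0.40) rose in AsPC-1 and was not called in Capan-1.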

How the results depend on the processing

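Across all alternatives the 90 member differences called by limma kept their direction, 0 reversed, and 55 kept their call in every alternative that gave a value. Leaving out 1 library in turn gave 13 to 22 members called for siB4GALT5 against siNC (17 as reported), 6 to 19 for siB3GNT3 in AsPC-1 (14), 5 to 22 between the knockdowns (10), 6 to 16 in Capan-1 (10), 6 to 12 for the interaction (7) and 31 to 32 between control cells (32). The other settings gave 14 to 21, 0 to 14, 7 to 13, 7 to 11, 4 to 10 and 31 to 32. Restoring AsPC-1 siB3GNT3 replicate 3 gave the 0 for siB3GNT3 in AsPC-1 and the 4 for the interaction. Rescaling to a common sum moved the median of all genes between control cells from 0.09 to 0.23, with 22 members higher and 10 lower. With a pseudocount of 0.1 the differences between control cells were 5.12 for CTSH, 3.75 for CTSS and 4.26 for NEU1. Libraries with the same replicate number in the titles did not pair (10 correlations of −0.07 to 0.07). With the replicate block, by the same numbers, the counts were 18, 14, 10, 8, 7 and 31. FPKM without counts leave depth unknown, so precision at low levels, as for TFEB, NEU1 in AsPC-1, CTSH and CTSS, rests on the spread between libraries alone. The siB3GNT3 group of AsPC-1 rests on 2 libraries.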
